A study of Mus musculus with 8 samples.

Results

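The data described here are the 3 peak lists in which an anti-Zmat3 immunoprecipitation (IP) from a control fibroblast line was set against the same IP from a Zmat3 knockout line. Every row of those lists was taken, which gave 129333 peaks for control 1, 153774 for control 2 and 122299 for control 3, or 405406 of the 978429 peaks in the 7 lists of the series. The other 4 lists set each IP against its own input RNA and are used here only for comparison. The method was crosslinking and immunoprecipitation: RNA was fixed to protein in living cells with UV light, trimmed with RNase, pulled down with the antibody and recovered from the 35 to 110 kDa region of a gel before sequencing.

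All 4 lines were mouse embryonic fibroblasts (MEFs) transformed by retroviral E1A, an adenoviral oncoprotein, and HrasG12V, a constitutively active Ras. The 3 control lines carried Cas9 and each received a different negative control sgRNA, EV in control 1, SPA in control 2 and ACOCA in control 3, followed by puromycin for 3 days and a further 10 days of culture. The comparator was 1 Zmat3-/- line that came from an earlier study, with no sgRNA, Cas9, puromycin or later culture in its label. Line origin, Cas9, sgRNA, puromycin, later culture and Zmat3 genotype therefore cannot be told apart, and the 3 lists share the knockout library. An exact permutation test of 1 library against 3 cannot give a p-value below 0.25, so no test between genotypes was made, and the agreement of the 3 lists shows the spread of the control lines only.

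Zmat3 is a zinc finger RNA-binding protein whose gene is a transcriptional target of p53. It is known to bind pre-mRNA, often in introns, and to regulate alternative splicing, with Mdm4, an inhibitor of p53, and Cd44, a cell surface receptor, among the transcripts it is known to act on. In a knockout IP the antibody should have no target, so RNA recovered there measures the background of the method, which grows with how abundant an RNA is. A site bound by the protein and a gene that the control cells simply make more of can both stand above the knockout IP. They may differ in shape, the first touching few places and the second all peaks of the gene, but shape alone does not tell them apart.

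Each peak carries a log2 fold of control IP over knockout IP and a -log10 p. The read numbers that give both values could be worked out for at least 99.9% of the peaks with a p-value in every list, and they placed the library totals at 3155000 to 3159000 reads for the IP of control 1, 3883000 to 3901000 for control 2, 3191000 to 3198000 for control 3 and 4780000 to 4786000 for the knockout IP. The peaks were shallow. Where the reads were settled, the median peak held 5, 5 and 4 control reads in controls 1, 2 and 3, no peak held fewer than 3, and the knockout stood at 1 read, the smallest number that occurs, in 18.8%, 23.0% and 21.4% of peaks. A fold with the knockout at 1 read is limited by that floor, and a knockout count of 0 may have been set to 1. Peaks below the knockout, and some above it, carry a fold without a usable p-value. Where no other list settled their reads, the smallest whole numbers with that ratio were taken. The reads of such genes are then lower bounds, which concerns 0.720%, 1.0% and 0.315% of the peaks of genes called raised below and 21.8%, 28.7% and 36.6% of those called lowered. The folds are not affected, except those of reads summed over a gene. The p-value compares the reads of 2 libraries, not the genotypes.

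The median peak lay above the knockout IP, with a log2 fold of 1.18 in control 1, 0.88 in control 2 and 1.00 in control 3, and 14.3% ± 2.66 (SD, n = 3) of peaks lay below 0. Because peaks were called in the control IP, each gene or site is given below as its log2 fold minus the median of its list, called its centred value. A centred value of 0 is thus the typical peak of that list and not an equal level in both IPs. A peak was called enriched where both the log2 fold and the -log10 p reached 3, as in 803 peaks (0.621%) in control 1, 1681 (1.09%) in control 2 and 793 (0.648%) in control 3. With the knockout at 1 read, an enriched peak needed at least 10, 12 and 10 control reads. Peaks at a log2 fold of -3 or less numbered 20 (0.0155%), 19 (0.0124%) and 6 (0.00491%).

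The targeted gene was examined first. Zmat3 RNA was still recovered from the knockout IP, with at least 470, 783 and 504 knockout reads at its called peaks in the lists of controls 1, 2 and 3 against 303, 748 and 229 control reads. The sites split by position. A site here means peaks of all 3 lists that overlap on the same strand in the same gene, and Zmat3 had 11. The 5 sites between 14.8% and 71.3% of the gene's span, counted from its 5′ end, each rested on 1 knockout read in every list. At the site at chr3:32345457-32345550 (mm10, minus strand) the controls had 13, 20 and 9 reads, with centred values of 3.12, 3.74 and 2.76. The 6 other sites lay in the first 0.342% and from 78.1% of the span onward, and all were lower in the controls. At the site at chr3:32341283-32341455 the control reads were at least 18, 46 and 14 and the knockout reads at least 83, 110 and 71, with centred values of -2.79, -1.84 and -2.76. The gene's median over all its peaks, 1.42, 0.89 and 0.91, therefore mixes 2 unlike parts, and reads summed over the gene gave log2 folds of -0.03, 0.23 and -0.56.

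**Figure D1:**
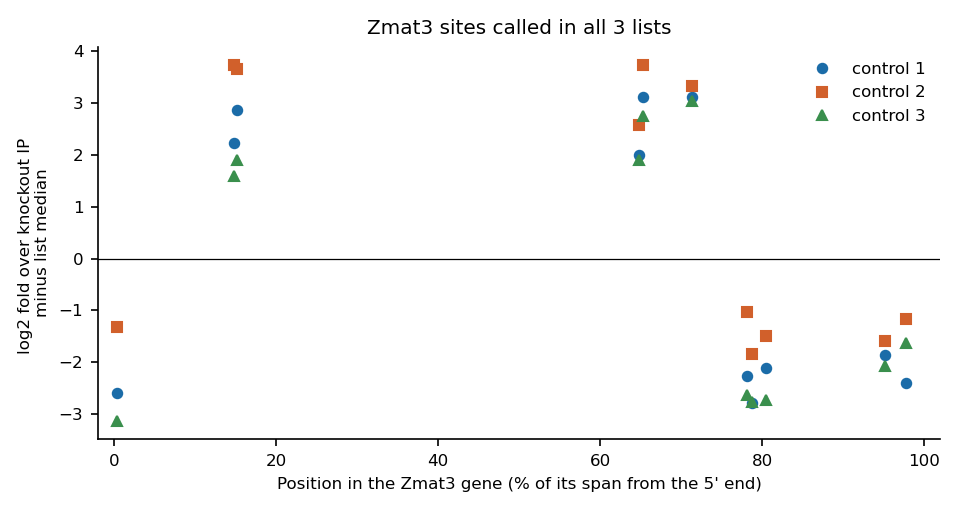
The 11 Zmat3 sites called in all 3 lists, by position along the gene (x axis, % of its span from the 5′ end) and log2 fold over the knockout IP minus the list median (y axis), with 1 symbol per control. The 5 inner sites lie above 0 and the 6 sites near the ends lie below 0 in every control.

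Whole-gene shifts were read from the median over all called peaks of a gene, in the 4890 genes with at least 5 peaks in each list. In 76 of them (1.55%) the centred median was at least 1 in every list, and these are called raised. In 42 (0.859%) it was -1 or less in every list, and these are called lowered. A shift of this kind cannot tell the amount of an RNA from the share of it that was recovered, nor fewer cells of a type from less RNA per cell. Ratios of small whole numbers come in steps, and 65 of the 76 raised genes stood exactly at 1.00 in their lowest list, so 11 were above the threshold in each list. In controls 1 and 2 a centred value of 1.00 is what 3 control reads, the fewest in any peak, give against 1 knockout read. In control 3 the same reads give 1.17. A gene median at these values may thus rest on peaks at the call minimum and at the knockout floor. Leaving out a control loosens the rule from 3 lists to 2: without control 1, 2 or 3 the raised genes numbered 193, 189 and 154, and the lowered genes 52, 178 and 54. The raised genes were more thinly covered, with a median of 57 control reads per gene and list, than the lowered genes with 147 and all 4890 genes with 88.

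The highest whole-gene value among protein-coding genes belonged to Ucp2, a mitochondrial carrier protein. Its reads were 149 in control 1, 246 in control 2 and 198 in control 3, against 22, 26 and 25 in the knockout at the same peaks. Every control was several times above the knockout, and the centred medians were 2.22, 2.94 and 2.75, a mean of 2.64 ± 0.37 (SD, n = 3). Reads summed over Ucp2 gave log2 folds of 3.36, 3.54 and 3.57. Over their own inputs, the Ucp2 peaks lay below the typical peak, with centred medians of -0.69, -0.71 and -1.06 in the 3 controls. The gene had no called peak over input in the knockout.

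Trib3, a pseudokinase induced by amino acid shortage, had centred medians of 1.87, 1.87 and 2.39, from 66, 126 and 51 control reads against 15, 26 and 11 knockout reads. Pck2, the mitochondrial enzyme that makes phosphoenolpyruvate, had 463, 457 and 372 control reads against 83, 67 and 83 knockout reads. Its centred medians were 1.85, 1.74 and 1.45. Gm33272, a long non-coding RNA annotated near the end of the Y chromosome, had the highest value in its lowest list among the 4890 genes, with 2.74, 2.50 and 2.33, and rested on 112, 256 and 136 control reads and 14, 33 and 23 knockout reads. Erdr1 gave 2.53, 2.58 and 4.17 from at most 2 peaks per list, none of them on the Y chromosome. The X and Y chromosomes share some sequence, so the origin of the reads of both genes is uncertain.

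The other genes above the threshold in each list were Soat2, which esterifies cholesterol (1.77, 1.21 and 2.25), Traip, a ubiquitin ligase of DNA replication (1.74, 1.58 and 1.17), Arap3, a GTPase-activating protein (1.21, 1.42 and 1.58), Mical1, which oxidises actin (1.21, 1.42 and 1.17), the RNA polymerase III subunit gene Polr3gl (1.21, 1.42 and 1.17), Iah1 (1.22, 1.32 and 1.17) and the secreted protease gene Htra1 (1.15, 1.42 and 1.17). The remaining raised genes tied at 1.00 and are not ranked.

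The lowered genes were led by Spp1, the secreted matrix protein osteopontin. The controls had at least 105, 93 and 201 reads at its peaks and the knockout at least 2118, 2209 and 2353. The centred medians were -4.98, -5.21 and -3.86, a mean of -4.69 ± 0.72 (SD, n = 3), and every called Spp1 peak lay below -3 in each control. Of the 23191 sites called in all lists, 10 (0.0431%) were at -3 or less in each, of which 7 were in Spp1 and the others in Abhd12, Asmt and Tbk1.

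**Figure D2:**
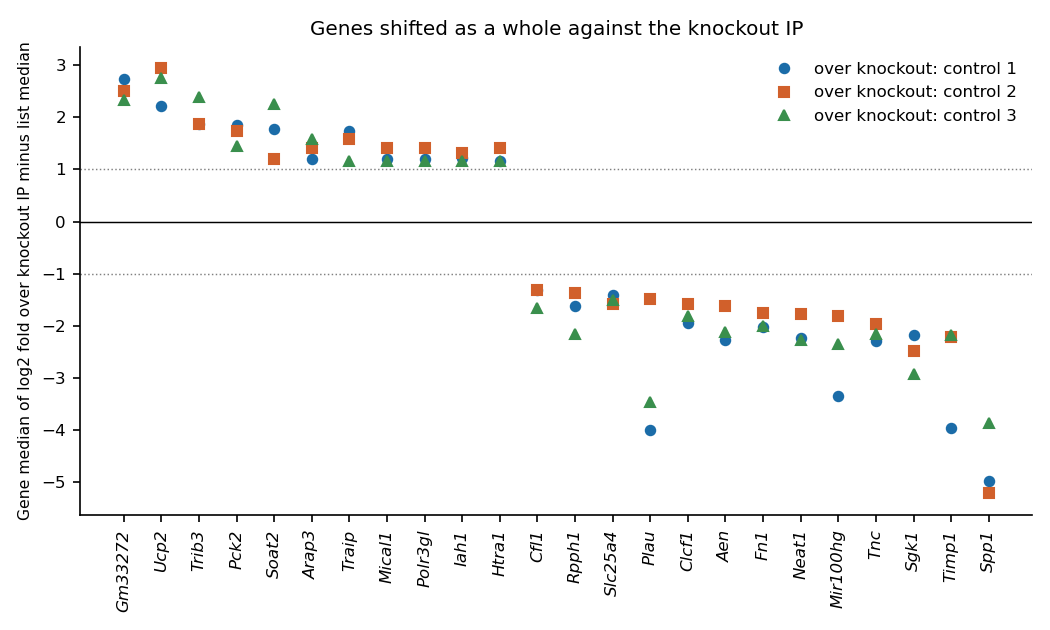
Centred gene medians (y axis, log2 fold over the knockout IP minus the list median) of the 11 genes above 1 in each list and 13 of the 15 lowered genes with the lowest values, with 1 symbol per control and dotted lines at 1 and -1. Spp1 lies lowest, control 2 is nearest to 0 for Plau, and control 1 lies below the others for Timp1 and Mir100hg.

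Timp1, an inhibitor of matrix proteases, had at least 59, 188 and 189 control reads and at least 599, 598 and 582 in the knockout, with centred medians of -3.96, -2.22 and -2.18. The matrix glycoprotein genes Tnc (-2.29, -1.96 and -2.16), Fn1 (-2.03, -1.75 and -2.0) and Thbs1 (-1.17, -1.17 and -1.15) were more even. Plau, the urokinase gene, was not: its centred medians were -3.99, -1.49 and -3.46, from 8, 24 and 11 peaks.

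Sgk1, a kinase induced by serum and steroids, gave -2.17, -2.49 and -2.92. The MAP kinase phosphatase genes Dusp4 (-1.48, -1.03 and -2.53) and Dusp5 (-1.16, -1.52 and -1.78) and the transcription factor gene Jun (-1.19, -1.39 and -1.48) respond to Ras and MAP kinase signalling. The gene of the actin-severing protein Cfl1 gave -1.32, -1.32 and -1.65. The cytokine gene Clcf1 (-1.95, -1.58 and -1.81) and the mitochondrial ADP/ATP carrier gene Slc25a4 (-1.40, -1.58 and -1.50) were also among the lowest, as were Aen, Mir100hg, Neat1 and Rpph1, given below.

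The call of a lowered gene depended on centring. Without it, 3 genes were at -1 or less in every list and 1401 were at 1 or more. Of the 42 lowered genes, 35 had fewer control than knockout reads after scaling for library size in every list when reads were summed over the gene, which 93 of the 4890 genes did. All 76 raised genes had more, as did 90.4% of the 4890 genes, and 24 of the 76 stayed at least 1 above the median gene in every list by summed reads, against 0.654% of all genes. These shares use the reads that the calls rest on.

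Single-site shifts were sought in the same lists. A strong site had a centred value of at least 3 and a -log10 p of at least 3 in every list, and 95 of the 23191 sites called in all lists did (0.41%), in 92 genes. Of these sites, 92 were in protein-coding genes, and 63 had the knockout at 1 read in each list. In 71 of the 4890 genes with enough peaks (1.45%) there was a strong site, and in 27 (0.552%) the median of the gene's remaining peaks lay within 0.5 of the list median in every list. These are the single-site genes. In 4 further genes, Pck2, Ucp2, Gm33272 and Dclk2, the remaining peaks were at least 1 above the median as well. Without control 1 the single-site genes numbered 102, and without control 3 they numbered 42.

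Fnbp4, which encodes a formin-binding WW domain protein, had the largest single-site value. At chr2:90768262-90768472 (mm10, plus strand, inside the gene) the reads were 91, 113 and 118 in controls 1, 2 and 3 against 1, 1 and 2 in the knockout. The log2 fold was 6.90 ± 0.37 (SD, n = 3), with centred values of 5.92, 6.24 and 5.47. The remaining Fnbp4 peaks had medians of -0.17, 0.00 and 0.04. The high values were not 1 peak: of 25, 32 and 19 Fnbp4 peaks, 5, 7 and 5 reached a centred value of 3, all within 159, 195 and 205 nt.

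Mdm4 had the best covered knockout count among the leading single sites. At chr1:133004395-133004631 (minus strand) the controls had 167, 276 and 214 reads and the knockout 5, 8 and 8, so the fold did not rest on the floor. The log2 fold was 5.46 ± 0.18 (SD, n = 3). A second site at chr1:133003891-133004032 had a log2 fold of 4.51 ± 0.24 (SD, n = 3), and all high Mdm4 peaks lay within 741 nt. The gene's median over all peaks was 0.15, 0.42 and 0.32. Of its 25, 21 and 27 peaks, 7, 5 and 5 reached a centred value of 3, and the peaks other than the first site had medians of -0.17, 0.22 and 0.07. Summed over the gene, its reads were 1036, 1188 and 1007 against 170, 121 and 178 in the knockout.

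Gnpat encodes an enzyme that makes ether lipids. Its site had 41, 59 and 46 reads against 1 in each list (centred values 4.77, 5.30 and 5.11). Pogz, a chromatin-associated zinc finger protein, had 54, 131 and 48 against 2, and C2cd5, a protein of vesicle transport, had 56, 139 and 101 against 2. Limk2, a kinase that inactivates cofilin, had 25, 72 and 31 reads against 1, and Ptpa, an activator of the phosphatase PP2A, had 25, 52 and 40 against 1.

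The next single sites were in the phosphatase gene Ptpn12 (22, 66 and 24 reads against 1), the translational repressor gene Gigyf2 (65, 132 and 58 against 3), the acetyltransferase gene Crebbp (21, 24 and 21 against 1), Wdr77 of the arginine methylation complex (18, 27 and 19 against 1), Mcph1, linked to chromosome condensation (22, 31 and 16 against 1), Srgap2, a GTPase-activating protein, and the mitochondrial carrier gene Mtch1. In 16 of the 27 single-site genes there was exactly 1 peak at a centred value of 3 or more in each list, and in 25 all such peaks lay within 1000 nt.

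**Figure D3:**
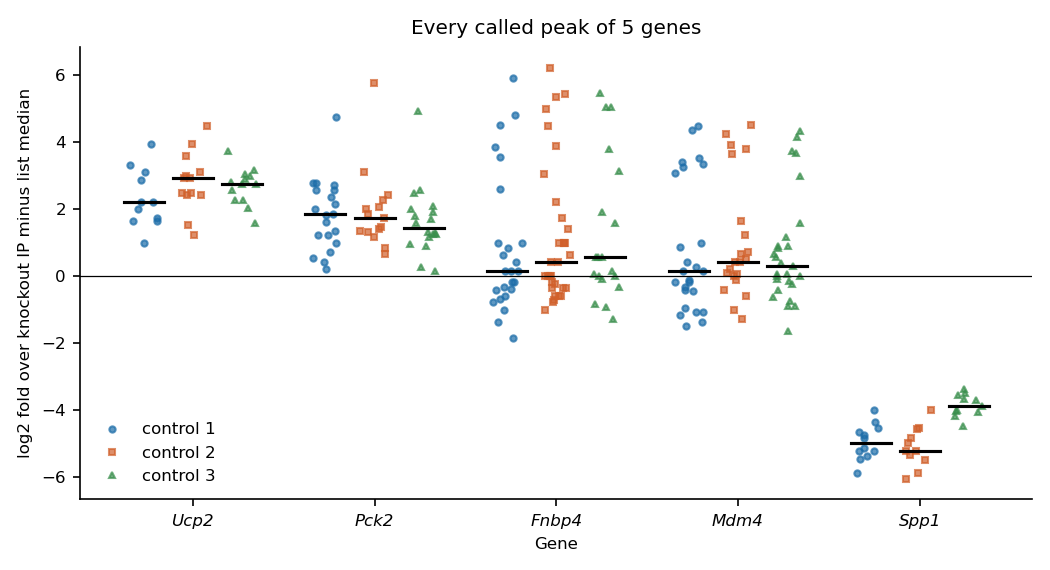
Every called peak of 5 genes (x axis) by its log2 fold over the knockout IP minus the list median (y axis), with 1 symbol and colour per control and black bars for the gene median. The Ucp2 peaks lie above 0 and the Spp1 peaks below it as a body, while Fnbp4 and Mdm4 have medians near 0 and a few peaks above 4, and Pck2 has both features.

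Length and position were not used by the rule. The strong sites' median length was 120 nt. In the 92 strong sites of protein-coding genes the median position was 71.1% of the gene's span from its 5′ end, against 57.6% for 22444 such sites called in all lists. In the first 10% of the span lay 1.09% of strong sites and 18.0% of all sites, and in the last 10% 8.70% and 16.3%. Whether a site lies in an exon or an intron was not analysed here.

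The strong sites were also set against the fold of the control IP over its own input, which shares the control IP reads with the rule, so it is a description. Of the 95 strong sites, 59 had a log2 fold over input of at least 3 in every control and 88 were above 0 in every control (62.1% and 92.6%), against 1.34% and 38.5% of the 23191 sites called in all lists. The Fnbp4 site stood at 6.72, 6.06 and 6.48 over input in the controls and the first Mdm4 site at 6.06, 5.32 and 5.71. The strong sites of whole-gene raised genes were not all alike. The Pck2 site at chr14:55547530-55547656 was at 6.65, 7.36 and 5.94 over input in the controls, while the first Ucp2 site was at -0.21, 0.06 and -0.82 and that of Gm33272 at -1.34, -1.06 and -1.80.

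**Figure D4:**
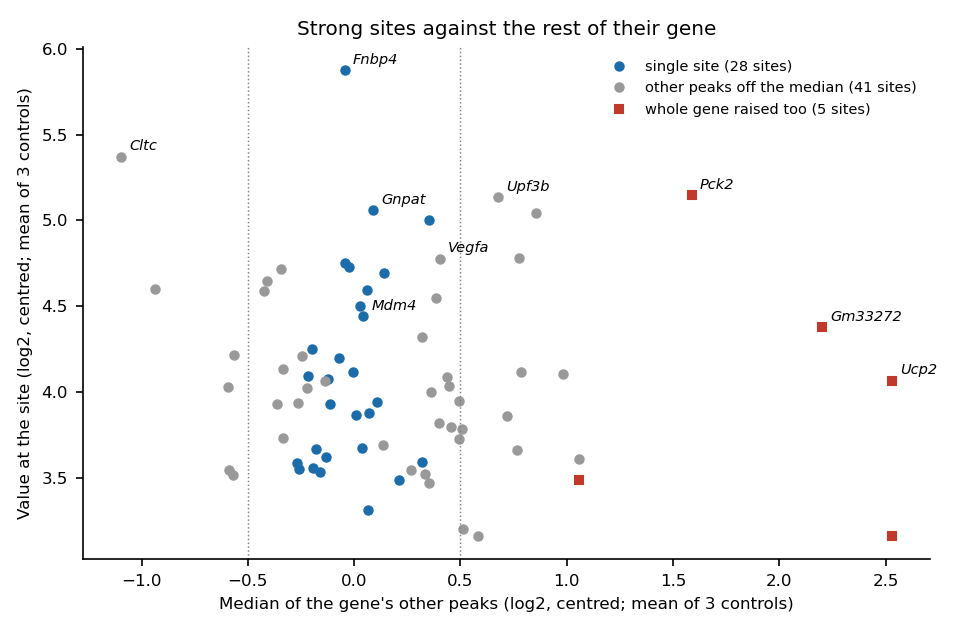
The 74 strong sites in genes with at least 5 peaks per list, by the median of the gene's remaining peaks (x axis) and the value at the site (y axis), both log2 folds over the knockout IP minus the list median and means of 3 controls. The 28 single sites lie between the dotted lines at -0.5 and 0.5, where grey points mark genes off that range in at least 1 list, and the 5 sites of Pck2, Ucp2, Gm33272 and Dclk2 lie to the right.

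A further 41 strong sites were in genes whose remaining peaks were off the median in at least 1 list without being raised in all. Cltc, the clathrin heavy chain gene, was the clearest case on the low side: its site was at 4.21, 6.51 and 5.39 while its remaining peaks had medians of -1.65, -0.58 and -1.05. Upf3b, whose protein takes part in nonsense-mediated decay, showed a site at 4.70, 5.12 and 5.58 with 39, 52 and 64 reads against 1. Vegfa, the endothelial growth factor gene, had 100, 131 and 85 reads against 2, 3 and 3, and remaining peaks at 0.52, 0.42 and 0.27. Afdn, an adaptor of cell junctions, had 2 strong sites, the first with 38, 42 and 34 reads against 1.

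The remaining 21 strong sites were in genes with fewer than 5 peaks in a list, for which no whole-gene value was taken. Rprl3, a small RNA gene with near-identical copies, had the highest value in its lowest list among the strong sites. Its centred values were 6.30, 5.84 and 6.13, from 829, 86 and 187 reads against 7, 1 and 2. Cltc stood higher in control 2 (6.51) and Agtrap in control 3 (6.26). The Rprl3 site was below input in every control (-0.26, -0.68 and -0.79), and reads of its copies cannot be told apart. Agtrap, an angiotensin receptor-binding protein gene, had 54, 68 and 102 reads against 1, and Rcc1, the nucleotide exchange factor of Ran, had 50, 79 and 44 against 1.

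Peaks of long non-coding and small RNA genes lay slightly below those of protein-coding genes in each list. Of the peaks, 125250, 149099 and 118554 fell in protein-coding genes, with centred medians of 0.00, 0.00 and 0.04. Long non-coding genes had 1257, 1498 and 1170 peaks with medians of -0.26, -0.17 and -0.42, and small RNA genes had 897, 1109 and 899 peaks with medians of -0.26, -0.08 and -0.49. Taken over genes and not over peaks, the long non-coding value was 0.41, so its sign depends on whether peaks or genes are counted. The share of enriched peaks was 0.769% ± 0.282 (SD, n = 3) in protein-coding, 0.867% ± 0.290 in long non-coding and 0.665% ± 0.289 in small RNA genes, which differ by less than the spread of the controls. In pseudogenes it was 2.12% ± 1.00, from 8, 5 and 12 enriched peaks (2.24%, 1.07% and 3.05%). In control 2 it was thus not above the protein-coding share of 1.09%. Peaks outside annotated genes were few (581, 585 and 456) but enriched in 6.71%, 2.39% and 4.61%.

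Among long non-coding RNAs the most deeply covered were nuclear. Neat1, the scaffold of paraspeckles, had at least 6801, 7776 and 5368 control reads against at least 20419, 17586 and 19054 in the knockout, with centred medians of -2.23, -1.77 and -2.28. Malat1, a neighbour of Neat1 that sits in nuclear speckles, had centred medians of -2.01, -0.89 and -1.89 over 46, 65 and 47 peaks, with control 2 nearest to 0. Mir100hg (-3.35, -1.81 and -2.35) and Mir22hg (-2.38, -1.28 and -2.06), host genes of microRNAs, were lowered too. The raised long non-coding genes were Gm33272, 9530026P05Rik and Gm12610, the latter 2 both at 1.00, 1.00 and 1.17, as was the pseudogene Ppp4r1l-ps. Of 25 small RNA genes with enough peaks none was raised, and Rpph1, the RNA of ribonuclease P, was lowered (-1.62, -1.38 and -2.17). The highest small RNA genes were the small nucleolar RNA genes Snora41 (0.60, 0.33 and 0.36), Rnu3a and Snord118.

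Among the fixed gene lists, the genes of the amino acid stress response stood highest. This response is driven by the transcription factor Atf4, which induces enzymes of amino acid synthesis, amino acid transporters and tRNA synthetases. Of 38 such genes with enough peaks, 7 were raised, against 1.55% of all genes, none was lowered, and 28 were above 0 in each list, against 20.4% of all genes. The median over the list was 0.60, against 0.01 over all genes, and 0.70 with each peak set against peaks of like read number. The list was written with earlier results of these data known and is not independent evidence.

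The raised members were Trib3 and Pck2, given above, the lipoprotein receptor gene Vldlr (1.21, 1.00 and 1.17), the tRNA exporter gene Xpot, the transporter genes Slc1a4 and Slc7a11 and the cysteine-producing enzyme gene Cth, the last 4 all at 1.00, 1.00 and 1.17. Those values are what 3 control reads against 1 knockout read give, and the lowest value of Vldlr lies there too. Below the rule in 1 list were Pycr1 of proline synthesis (1.74, 0.74 and 2.17), the transporter gene Slc7a5 (1.49, 0.92 and 1.20) and Shmt2 of serine metabolism (1.22, 1.00 and 0.98). Asns, the asparagine synthetase gene, was at 0.69, 0.83 and 0.75. Not all members moved this way: Eif4ebp1, a repressor of translation, was at -0.38, -0.14 and -0.65 and the alanyl tRNA synthetase gene Aars at -0.51, -0.25 and -0.17.

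Since these members were raised as whole genes, the promoters of 3 of them are shown, with the letters of a motif bound by Atf4 and its C/EBP partners, TGATGNAA on either strand, in capitals. The sequences are RefSeq windows of GRCm38.p6 from 250 bases before to 50 after an annotated transcript start, written 5′ to 3′ on the gene's strand, at chr14:55540016-55540315 for Pck2, chr3:50443564-50443863 for Slc7a11 (inside the span of the gene as annotated in the table used here) and chr11:20332664-20332963 for Slc1a4.
Pck2: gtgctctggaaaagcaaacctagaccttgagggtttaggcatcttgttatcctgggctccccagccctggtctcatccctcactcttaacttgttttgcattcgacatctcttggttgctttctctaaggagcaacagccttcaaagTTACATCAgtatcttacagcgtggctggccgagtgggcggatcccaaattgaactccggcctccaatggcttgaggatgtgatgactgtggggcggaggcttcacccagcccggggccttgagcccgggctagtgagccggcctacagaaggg
Slc7a11: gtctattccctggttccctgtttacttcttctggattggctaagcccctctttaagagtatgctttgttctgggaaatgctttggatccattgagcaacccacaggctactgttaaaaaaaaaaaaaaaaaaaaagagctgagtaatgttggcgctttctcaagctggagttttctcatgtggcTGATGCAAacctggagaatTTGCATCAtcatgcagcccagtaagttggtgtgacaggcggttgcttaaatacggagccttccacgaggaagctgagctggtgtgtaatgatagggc
Slc1a4: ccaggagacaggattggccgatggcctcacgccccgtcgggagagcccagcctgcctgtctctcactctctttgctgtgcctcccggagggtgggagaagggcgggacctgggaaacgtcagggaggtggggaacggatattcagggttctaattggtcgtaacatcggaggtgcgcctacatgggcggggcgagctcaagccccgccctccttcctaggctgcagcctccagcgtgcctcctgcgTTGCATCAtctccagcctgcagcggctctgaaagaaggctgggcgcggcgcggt
Of the 30 measured members with a window in the table, 12 held the motif, among them 5 of 6 raised members (Trib3, Pck2, Vldlr, Slc1a4 and Slc7a11). The motif was in 2.56% of the 3982 measured genes with a window and in 3.97% of all 32851 windows of that length. A match describes the letters and shows no binding. The list was written as genes of the Atf4 response, so a high share of an Atf4 motif in it is no independent support for the shift. Of the 59 raised genes with a window 6 held it, of which 5 were the list members just named, and of the 27 lowered genes 0. These counts are too small to set raised genes apart from lowered genes.

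The p53 targets showed how much control 2 differed from the other 2 controls. Of 16 with enough peaks, Aen, a nuclease (-2.26, -1.62 and -2.12), and Bax, which triggers apoptosis (-1.80, -1.26 and -2.04), were lowered, against 0.859% of all genes, none was raised, and the list median was -0.76. By list it was -1.17 in control 1, -0.33 in control 2 and -0.89 in control 3. Mdm2, the ubiquitin ligase of p53, had at least 296 control reads and 1359 knockout reads in the list of control 1 and 228 and 1038 in that of control 3, but 2909 and 2741 in that of control 2. Its centred medians were -3.02, -0.69 and -2.89. Cdkn1a, the cell cycle inhibitor p21, was also nearest to 0 in control 2, with -1.76, -0.68 and -2.39. Trp53 itself was at -0.58, 0.00 and -0.42. Cdkn2a, which restrains Mdm2 through its ARF product, was the lowered gene of the p53 regulators (-1.16, -1.08 and -1.0).

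Control 2 was nearest to 0 in genes outside the p53 lists as well. Cd44 was at -2.07, -0.84 and -1.72, the filament gene Vim at -2.26, -1.02 and -2.62, Anxa2 at -2.18, -0.60 and -1.83 and the chromatin gene Hmga2 at -2.17, -0.87 and -2.31. What sets control 2 apart was not tested. Hras, the gene of the oncogene that all lines received, had 3, 5 and 4 peaks and centred medians of -1.21, -0.82 and -0.60.

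In the matrix list 4 of 22 were lowered (Timp1, Tnc, Fn1 and Thbs1), against 0.859% of all genes, and 0 raised, with a list median of -0.23, or -0.46 without control 2. In the actin and focal adhesion list 3 of 49 were lowered (0.859% of all genes were), among them Cfl1 and the integrin-binding Tln1, 32 were below 0 in each list, against 23.8% of all genes, and the median was -0.40. In the Ras, MAPK and PI3K list 3 of 58 were lowered (Dusp4, Dusp5 and Jun) and Map2k5 had a single site. Of 56 SR protein and hnRNP genes none was raised or lowered, 29 were below 0 in each list and the median was -0.29, with Mbnl2 (-1.17, -0.58 and -1.15) and Hnrnpf (-0.60, -1.12 and -0.89) lowest.

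The RNA decay list had 1 raised gene of 47, Dis3l2, an exonuclease (1.00, 1.00 and 1.17), and 1 single-site gene, Cnot1, the scaffold of a deadenylase, which is near the 1.55% and 0.552% of all genes. Lowered genes of other lists were Hmga1 of 65 chromatin regulators (-1.08, -1.35 and -1.16), Cltb of 26 clathrin and adaptor genes (-1.0, -1.0 and -1.0) and Peg10 of 8 imprinted genes (-1.21, -2.47 and -1.45). Each is 1 gene of its list, and 0.859% of all genes were lowered. Cltb stood exactly at the threshold in each list, and its summed reads gave log2 folds of -0.03, -0.04 and 0.04. No member was raised or lowered among 45 core spliceosome genes (median -0.14), 46 cell cycle and replication genes (0.15), 18 hypoxia and glycolysis genes (0.16), 15 cholesterol and lipid synthesis genes (-0.25) and 9 interferon response genes (0.38, but -0.07 without control 3). Crebbp of the p53 regulators and Limk2 of the actin list had single sites.

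**Figure D5:**
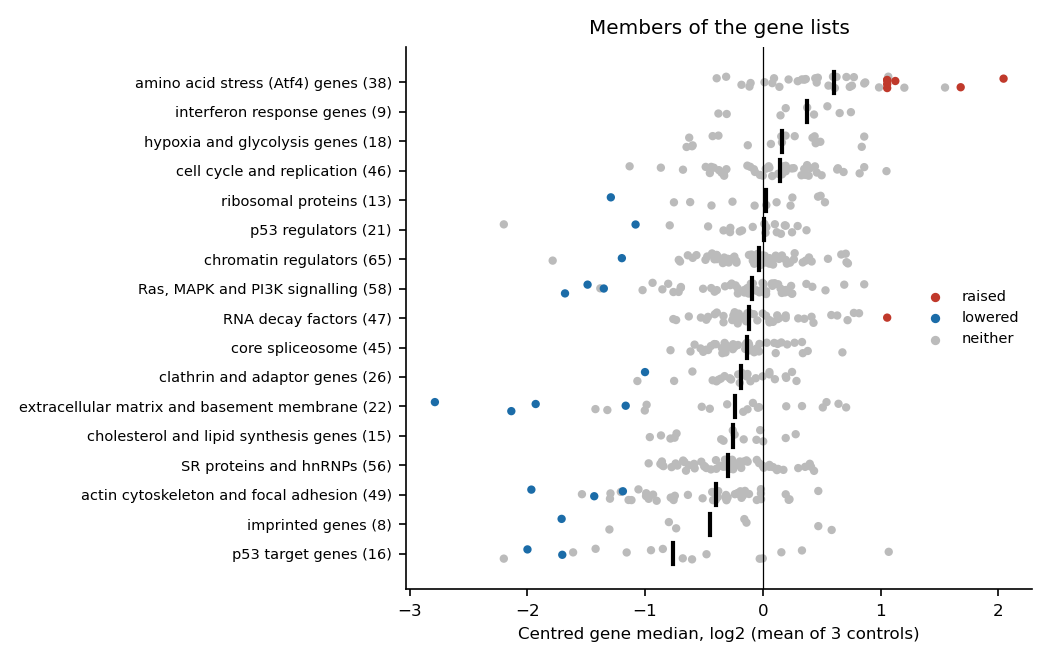
Members of each gene list with at least 5 measured genes (y axis, number measured in brackets) by centred gene median (x axis, log2, mean of 3 controls), with black bars for list medians, red for raised, blue for lowered and grey for neither. Among these lists the amino acid stress genes lie farthest to the right, with a median of 0.60, and the p53 targets farthest to the left, with a median of -0.76.

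The labels were checked against markers. Of 12 fibroblast markers Col1a1, Col1a2, Thy1, S100a4, Postn and Dcn had 0 called peaks, 6 had a peak in some list and 4 had enough peaks: Vim and Fn1 were lowered, Pdgfrb was raised (1.00, 1.42 and 1.17) and Col5a1 was at 0.00, 0.00 and -0.09. Of the other markers, 0 of 5 endothelial, 1 of 6 leukocyte, 1 of 5 muscle, 2 of 5 neural and 3 of 7 epithelial genes had any peak, and Epcam was at 0.42, -0.26 and 0.68 and Nes at -1.30, -0.52 and -1.42. Xist, the RNA of the inactive X chromosome, had 56, 61 and 65 peaks in the 3 lists and 72 over input in the knockout, and its centred medians were -1.06, -0.85 and -0.93, so its RNA was recovered from all 4 lines. The Y-linked genes Ddx3y, Eif2s3y, Kdm5d and Uty had 0 called peaks in every list, the knockout over input included.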

How the data were processed

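Peaks were mapped to build mm10, per the submitters' processing notes; for the aligner, peak caller and normalization, tools were not given in the sources used here. Each list deposited by the authors holds, besides position and strand, the log2 fold of the IP over its comparator and the -log10 of its p-value. Replicates were not pooled. From these values the read pairs were worked out as the whole numbers whose scaled ratio gives the log2 fold and whose Fisher exact or Yates-corrected chi-square p gives the deposited p-value (tolerance 1e-06 on the fold and 3e-05, relative, on the p). Peaks with p listed as 0 carry a ratio only; the same control's list over input settled the multiple where it could, and settled reads cover 93.2%, 90.4% and 88.4% of the 3 lists. Reads are not independent molecules unless duplicates were removed, which is not stated.

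Peaks were assigned by strand to RefSeq genes (GRCm38.p6; strand known for 28097 of 49980 genes, the others matched on either strand), small RNA genes first, then by midpoint. Folds were centred on the list median; genes needed 5 peaks in each of the 3 lists. Thresholds were read with a tolerance of 1e-06. Named genes were the 12 fixed genes, the 15 highest and 15 lowest whole-gene values, the 15 highest single sites, up to 4 members per gene list and up to 3 per non-coding class; some of these are not reported here. The lists, the members and the gene lists were chosen with earlier results of these data known. Nothing says that the control lines are independent derivations, so the SD measures only their spread. Alternatives varied the thresholds, the centring, the minimum of peaks, the summary over peaks and the controls included. The calling of genes and sites was tested on simulated data. Python 3.11.15, numpy 2.4.6, pandas 2.3.3 and scipy 1.17.1 were used.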

Additional observations from a re-analysis of the deposited data

How the results depend on the processing

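The mean count of enriched peaks per list was 1092, and became 1713 at a log2 fold of 2, 476 at 4, 506 at a -log10 p of 5 and 2976 with no limit on p. Leaving out 1 control gave 798 to 1242. Peaks at -3 or less averaged 15.0 per list, 143 at -2 and 12.5 to 19.5 with a control left out. The 76 raised and 42 lowered genes became 1401 and 3 without centring, 134 and 51 at 3 peaks per list, 32 and 21 at 10 peaks, 238 and 314 at a threshold of 0.5, 3 and 11 at 1.5, and 22 and 38 with the mean over peaks. Leaving out 1 control gave 154 to 193 raised and 52 to 178 lowered genes. Of the alternatives, 2 were chosen after seeing the data: summed reads gave 32 and 66, of which 24 and 33 were in the main sets, and centring within peaks of like read number gave 94 and 47, with 75 and 32 shared. The 27 single-site genes became 67 at a site value of 2, 8 at 4, 15 and 59 with the rest of the gene within 0.3 and 1, 7 without centring, and 40 to 102 with a control left out. A stricter overlap of peaks and a minimum of 3 or 10 peaks kept the count within 1.5 times. Taken over genes, the class median was 0.11 for protein-coding and 0.41 for long non-coding genes, against 0.01 and -0.28 over peaks. The median of the amino acid stress genes, 0.60, became 0.70 with the mean over peaks and 0.58 at 3 peaks per list, and was 0.58 to 0.60 with a control left out. The cause of these changes was not tested beyond what each rule itself removes or adds. No paired analysis was possible because the 3 control lists share 1 knockout library, which carries only 1 replicate number. Depth limits most single peaks, which rest on a handful of reads.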
